A study of Homo sapiens with 9 samples.

Results

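The AP-1 genes examined here were the 7 genes that encode the Fos proteins (FOS, FOSB, FOSL1 and FOSL2) and the Jun proteins (JUN, JUNB and JUND). They were found in the deposited count table by Ensembl identifier, and all 7 were present among 24344 genes. Their RNA was measured in the MDA-MB-231 cell line, which was derived from a human breast adenocarcinoma, after 48 h of treatment. The groups were Compound Kushen Injection (CKI, at 2.0 mg/mL of total alkaloids), an injection of Kushen alone and an injection of Baituling alone, both labelled as matched in ratio to CKI, with 3 libraries each. CKI combines the herbs Kushen and Baituling. Each injection is a complex plant extract, no untreated libraries were analysed here, and a single cell line was used. A difference between treatments therefore shows how the injections compare with each other and not how each moves a gene from its untreated level.

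AP-1 is a transcription factor made of paired proteins. Each carries a basic stretch that contacts DNA and a leucine zipper that holds the pair together. Jun proteins can pair with each other or with Fos proteins, whereas Fos proteins bind DNA with a partner from the Jun family. FOS, FOSB, JUN and JUNB are immediate early genes, whose transcripts appear within minutes of a stimulus such as serum, cytokines or stress and are quickly degraded. FOSL1, which encodes Fra-1, is known for its high level in mesenchymal-like breast cancer lines such as MDA-MB-231. JUND is the most steadily expressed Jun gene in many cell types.

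The family was chosen by the measured fold changes of FOS and FOSB between CKI and Kushen, and of FOSB between Kushen and Baituling, in these same libraries. All 7 genes were treated as chosen with every comparison in view. Their values are therefore given as a description, with the fold change and SE of the fit but without p-values. These values support nothing by themselves. Tests are reported for other genes of the pathway, in lists written by hand with earlier results of these data known. The shares of these lists are therefore a description too, and not independent support. Library totals ranged from 20144628 to 23782071 counts, and levels are printed in CPM, which puts all libraries on 1 common total after TMM scaling. The libraries matched the labelled cell line in that VIM, CD44 and KRT18 were expressed, with group means of 351 to 2070 CPM for VIM, while ESR1 and PGR stayed at means of 0.086 CPM or less. CDH1 reached group means of 0.587 to 2.01 CPM and EPCAM 7.32 to 13.6 CPM. RNA composition also differed between treatments. The summed level of 4 nuclear or unpolyadenylated RNAs found in the table (of 8 listed: NEAT1, MALAT1, KCNQ1OT1 and RN7SK) ranged over 1047 to 1826 CPM with CKI, 1030 to 2004 CPM with Kushen and 134 to 161 CPM with Baituling. Group means in CKI, Kushen and Baituling were 944, 1011 and 68.2 CPM for NEAT1 and 535, 512 and 75.2 CPM for MALAT1. Those of KCNQ1OT1 were 4.32, 2.27 and 0.556 CPM. RN7SK, at 2.5, 1.82 and 2.07 CPM, had an edgeR adjusted p under 0.05 in no comparison. The part of RNA composition in the values below was not tested. In such bulk libraries, fewer cells that express a gene and less of its RNA per cell cannot be told apart.

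The sequence before the start site of the genes was examined first, since FOS and FOSB differed together and strongly between treatments, JUN in the same order but less, and JUNB in another order. A RefSeq promoter entry on build GRCh38.p14 was found for 6 of the 7 genes, and FOSL1 had none. The 250 bases before the start site are shown 5′ to 3′ on the gene's strand for FOS (chr14:75278578-75278827, plus strand), FOSB (chr19:45467746-45467995, plus strand), JUN (chr1:58784048-58784297, minus strand) and JUNB (chr19:12791236-12791485, plus strand). Capitals mark TGACG, the core of the cyclic AMP response element.

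FOS: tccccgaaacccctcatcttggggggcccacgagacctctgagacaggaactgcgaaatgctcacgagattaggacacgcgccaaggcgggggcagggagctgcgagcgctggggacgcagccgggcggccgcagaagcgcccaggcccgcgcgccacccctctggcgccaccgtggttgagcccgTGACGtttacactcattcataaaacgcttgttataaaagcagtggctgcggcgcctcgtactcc
FOSB: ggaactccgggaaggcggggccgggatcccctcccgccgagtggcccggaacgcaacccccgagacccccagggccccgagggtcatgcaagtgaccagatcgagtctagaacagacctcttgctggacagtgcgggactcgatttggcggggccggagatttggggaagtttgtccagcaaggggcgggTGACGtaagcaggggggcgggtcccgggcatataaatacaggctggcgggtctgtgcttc
JUN: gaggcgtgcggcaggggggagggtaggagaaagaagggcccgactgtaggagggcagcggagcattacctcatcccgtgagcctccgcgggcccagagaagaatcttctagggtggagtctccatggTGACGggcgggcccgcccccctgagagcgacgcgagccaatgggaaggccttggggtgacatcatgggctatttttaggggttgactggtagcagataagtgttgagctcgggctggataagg
JUNB: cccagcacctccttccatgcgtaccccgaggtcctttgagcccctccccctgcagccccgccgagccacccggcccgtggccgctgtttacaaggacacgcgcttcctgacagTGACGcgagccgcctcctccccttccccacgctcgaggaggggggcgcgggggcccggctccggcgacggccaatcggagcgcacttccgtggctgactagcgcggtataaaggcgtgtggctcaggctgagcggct

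TGACG, searched on both strands, was present in all 6 windows, against 21.2% of 35116 promoter windows of the same length. In FOS it ended 60 bases and in FOSB 56 bases before the start site, and each of these windows also held TATAAA, ending 28 and 25 bases before the start. TATAAA was found in 10.7% of all windows and among the other genes only in JUNB, where it ended 26 bases before the start. JUN held TGACATCA, a variant of the AP-1 site, ending 60 bases before the start, which was present in 2.37% of windows. Its TGACG lay farther away, at 119 bases, and that of JUNB at 133 bases. FOSL2 held a TGACG ending 62 bases before the start, close to the position in FOS and FOSB, and another at 197 bases. The nearest TGACG of JUND ended 82 bases before the start. JUND was the only gene of the 6 with the full palindrome TGACGTCA, which contains TGACG on both strands and was found in 1.65% of windows. TGANTCA, the AP-1 site itself, and the CArG box, which is bound by serum response factor, had no match in these windows, against 6.57% and 1.16% of all windows. Sequence farther from the start site was not searched, so sites there would be missed. The matches are letters in a window and do not show binding.

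The gene structures also differed between the families. On build GRCh37, the assembly of the authors' alignment, FOS lies on chromosome 14 (75745529 to 75748933), FOSB on chromosome 19 (45971253 to 45978437), FOSL1 on chromosome 11 (65659520 to 65668044) and FOSL2 on chromosome 2 (28615315 to 28640184), each with 4 exons in its canonical transcript. JUN on chromosome 1 (59242517 to 59249720), JUNB on chromosome 19 (12902300 to 12904129) and JUND on chromosome 19 (18390504 to 18392432) have 1 exon each. The pentamer ATTTA, which marks AU-rich elements that speed mRNA decay, occurred 5 times in the 3′ untranslated region of FOS, 9 times in that of FOSL2, 3 times in those of FOSB and JUN, 2 times in that of JUNB and 1 time in those of FOSL1 and JUND. Over 12973 tested genes the median was 2. Per kilobase, FOS held 6.2 and JUNB 4.0, against a median of 1.73, while FOSL1, FOSB, JUND, FOSL2 and JUN ranged from 1.19 to 2.34.

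FOS, the founding Fos gene and a transient inducer of proliferation genes, was lowest in Kushen. It measured 155, 168 and 172 CPM in the CKI libraries, 13.3, 13.2 and 21.7 CPM in the Kushen libraries and 209, 231 and 230 CPM in the Baituling libraries. The groups did not overlap, and the highest Kushen library lay far below the lowest library of either other group. FOS was 10.3-fold higher in CKI than in Kushen (log2 fold change 3.37 ± 0.11, SE) and 14-fold lower in Kushen than in Baituling (-3.80 ± 0.11). CKI and Baituling differed far less, by a log2 fold change of -0.44 ± 0.09, which was -0.15 when library totals replaced TMM.

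FOSB, a close relative of FOS whose splice forms include a stable truncated protein, showed the same order at a lower level. It measured 16.7, 16.2 and 13.0 CPM in CKI, 1.21, 1.35 and 1.86 CPM in Kushen and 33.8, 36.9 and 45.5 CPM in Baituling. In Kushen these values rested on 30, 33 and 42 counts per library. No groups overlapped, and Baituling was above CKI as well as above Kushen. FOSB was 10.4-fold higher in CKI than in Kushen (3.38 ± 0.17) and 26.3-fold lower in Kushen than in Baituling (-4.72 ± 0.16). It was 2.52-fold lower in CKI than in Baituling (-1.34 ± 0.11, or -1.05 with library totals). The whole of FOSB lies within the annotated span of ERCC1 on the opposite strand, and the libraries were unstranded. ERCC1 measured 65.6 ± 1.21 CPM (SD, n = 3) in CKI, 60.0 ± 4.90 CPM in Kushen and 80.5 ± 4.04 CPM in Baituling. Its differences were far smaller than those of FOSB, but its level in Kushen was far above the FOSB mean of 1.47 CPM there. The part of ERCC1 reads in the FOSB counts was not tested.

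FOSL1 and FOSL2 encode Fra-1 and Fra-2, Fos proteins that lack the transactivation domain of FOS. FOSL1 measured 298, 302 and 316 CPM in CKI, 250, 256 and 272 CPM in Kushen and 477, 437 and 449 CPM in Baituling. The 3 groups did not overlap, but the step from Kushen to CKI was small, 1.18-fold (0.24 ± 0.05). FOSL1 was 1.49-fold lower in CKI (-0.57 ± 0.05) and 1.75-fold lower in Kushen (-0.81 ± 0.05) than in Baituling. With library totals the value for CKI shrank to -0.29.

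FOSL2 measured 302, 317 and 303 CPM in CKI, 225, 240 and 247 CPM in Kushen and 311, 326 and 306 CPM in Baituling. CKI and Baituling overlapped, with a log2 fold change of -0.03 ± 0.04 that became 0.25 with library totals, and both lay above Kushen. It was 1.29-fold higher in CKI than in Kushen (0.37 ± 0.04) and 1.32-fold lower in Kushen than in Baituling (-0.41 ± 0.04). The antisense RNA FOSL2-AS1, which overlaps FOSL2, had at most 49 counts in any library.

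JUN, the main transactivating Jun gene, measured 467, 475 and 530 CPM in CKI, 251, 277 and 329 CPM in Kushen and 601, 584 and 625 CPM in Baituling. It followed the order of FOS with a narrower range and no overlap between groups. JUN was 1.72-fold higher in CKI than in Kushen (0.78 ± 0.07) and 2.11-fold lower in Kushen than in Baituling (-1.08 ± 0.07). The latter value was -0.99 without Kushen replicate 1 and -0.87 with library totals. CKI differed from Baituling by -0.30 ± 0.07, which shrank to -0.01 with library totals.

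JUNB, which encodes a weaker activator that can restrain JUN, was the only member with its highest level in CKI. It measured 369, 374 and 403 CPM in CKI, 127, 150 and 173 CPM in Kushen and 200, 193 and 216 CPM in Baituling. All CKI libraries lay above all others, and the Baituling libraries lay above those of Kushen. JUNB was 2.55-fold higher in CKI than in Kushen (1.35 ± 0.08) and 1.88-fold higher than in Baituling (0.91 ± 0.08, or 1.20 with library totals). Kushen was 1.35-fold below Baituling (-0.44 ± 0.08). JUNB lies within the annotated span of HOOK2 on the opposite strand. HOOK2 measured 52.0 ± 5.32 CPM (SD, n = 3) in CKI, 53.1 ± 1.43 CPM in Kushen and 32.7 ± 0.336 CPM in Baituling, an order unlike that of JUNB.

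JUND differed least between CKI and Kushen. It measured 443, 438 and 499 CPM in CKI, 347, 473 and 512 CPM in Kushen and 640, 590 and 626 CPM in Baituling. CKI and Kushen overlapped, with a log2 fold change of 0.05 ± 0.09 that turned to -0.10 without Kushen replicate 1, the lowest library. Both were below Baituling, CKI by a log2 fold change of -0.43 ± 0.09 (-0.14 with library totals) and Kushen by -0.48 ± 0.09. Kushen replicate 1 was also the lowest library of its group for JUN and JUNB.

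**Figure D1:**
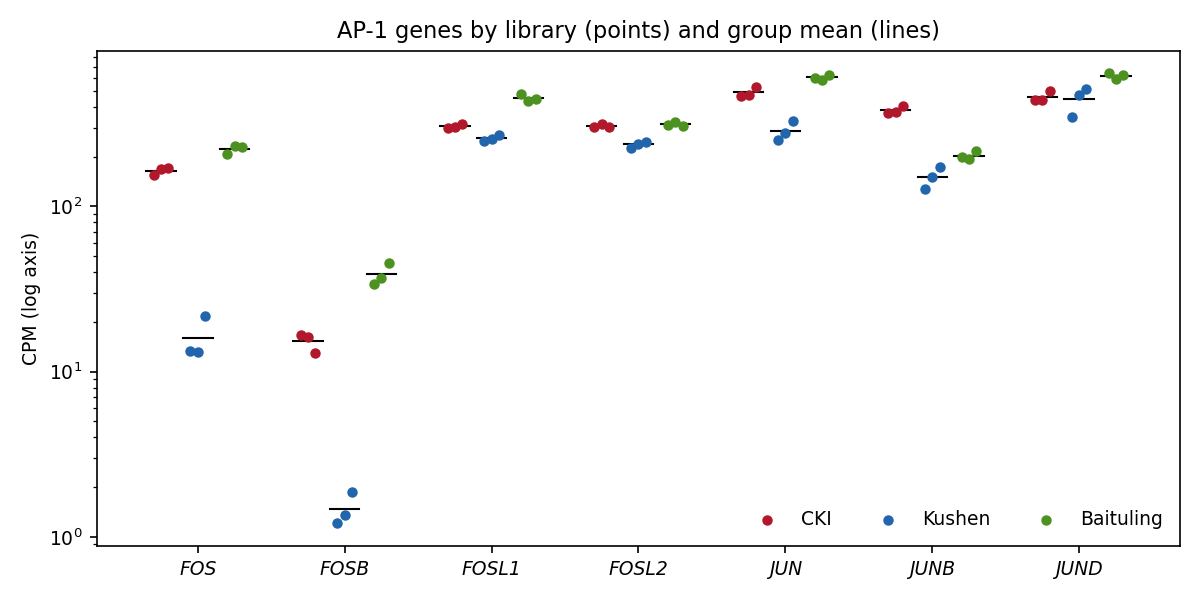
CPM (log axis) of the 7 AP-1 genes in each of the 9 libraries (points, coloured by treatment), with the group mean as a line. FOS and FOSB lay about an order of magnitude lower in Kushen than in CKI or Baituling, JUNB was highest in CKI, and the other 4 genes spanned a narrow range.

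Across the family, 6 of the 7 genes (all but JUND) had no overlap between CKI and Kushen, with CKI higher, where 49.5% of the 14195 genes tested showed no overlap in either direction. The 3 genes past the call rule of the study (adjusted p under 0.05 and log2 fold change above 1 or below -1) were FOS, FOSB and JUNB, against 1.90% of genes tested. In CKI against Baituling 5 members were lower and JUNB higher without overlap, beside 78.3% of genes tested, and FOSB alone was past the call rule, beside 19.1%. With library totals JUNB was past it as well, which made 2. In Kushen against Baituling all 7 members were lower without overlap, beside 73.1% of genes tested, and FOS, FOSB and JUN were past the call rule, beside 15.2%. JUN was no longer past it with library totals or without Kushen replicate 1, which left 2. The median log2 fold change of the 7 genes was 0.78, -0.43 and -0.81 in the 3 comparisons, beside medians of 0.01, 0.03 and 0.02 over all genes tested. These counts belong to the contrasts that brought the family to notice, so nothing is read from them. The comparisons share libraries in pairs, and their values are not independent of each other. Library totals moved the median of all genes up by 0.08 (CKI over Kushen), 0.29 (CKI over Baituling) and 0.21 (Kushen over Baituling), and every difference above is relative to the TMM scale unless stated.

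**Figure D2:**
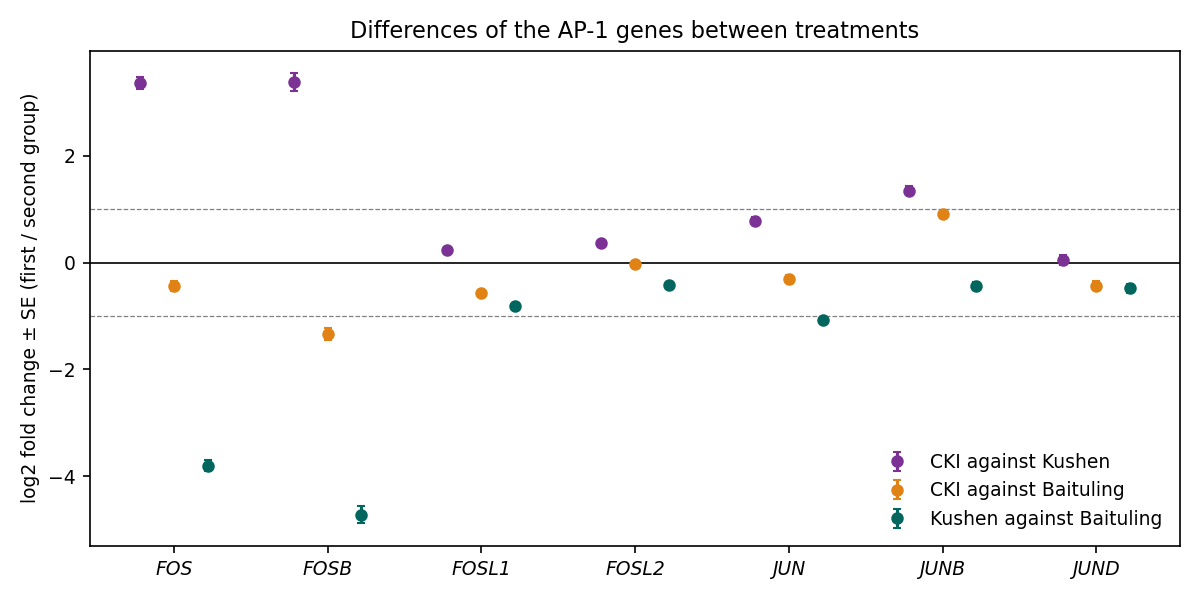
Log2 fold change with SE of each AP-1 gene in the 3 comparisons (first group over second), with dashed lines at the fold threshold of the study. FOS and FOSB stood at 3.37 and 3.38 in CKI against Kushen and at -3.80 and -4.72 in Kushen against Baituling, and JUNB was the only gene above 0 in CKI against Baituling, at 0.91, although FOSL2 turned to 0.25 with library totals.

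The make-up of each family was described per length, as each member's share of the family's counts per kilobase of merged exon. FOSL1 was the largest part of the FOS family in every group, with 62.4% ± 0.759 (SD, n = 3) of it in the CKI libraries, 78.2% ± 0.555 in those of Kushen and 66.5% ± 1.95 in those of Baituling. The share of FOS was 19.3%, 20.3% and 20.3% in the CKI libraries, 2.48%, 2.38% and 3.67% in the Kushen libraries and 17.8%, 20.4% and 20% in the Baituling libraries. In its share, unlike in its level, FOS overlapped between CKI and Baituling. FOSL2 made up 16.6% ± 0.596, 18.8% ± 0.429 and 12.1% ± 0.556, and FOSB never more than 2.27% in any library. The summed level of the family was 259 ± 7.38 CPM per kilobase (SD, n = 3) with CKI, 176 ± 8.94 with Kushen and 362 ± 5.83 with Baituling.

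In the JUN family the share of JUNB was 35.9% ± 0.580 (SD, n = 3) with CKI, 21.0% ± 0.752 with Kushen and 18.5% ± 0.606 with Baituling. JUND was the largest part in each group on this length scale, with 40.9% ± 0.511, 58.7% ± 2.16 and 53.6% ± 0.961, and JUN held 23.2% ± 0.198, 20.3% ± 1.41 and 27.8% ± 0.448. The summed level was 582 ± 36.8 CPM per kilobase in CKI and 598 ± 22.8 in Baituling, which overlapped, and 391 ± 67.1 in Kushen. The summed Jun family level of CKI and Baituling thus overlapped while the share of JUNB did not. The shares depend on the gene length used: with the length of the canonical transcript FOS held 25.4%, 3.87% and 24.7% of its family in the same order of groups. Without length scaling FOSL1 (38.5%) and FOSL2 (38.8%) were level in CKI, and JUN (36.8%) stood above JUND (34.5%) there. In Kushen and Baituling JUND still held more than JUN without length scaling, 50.3% against 32.6% and 43.4% against 42.3%.

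**Figure D3:**
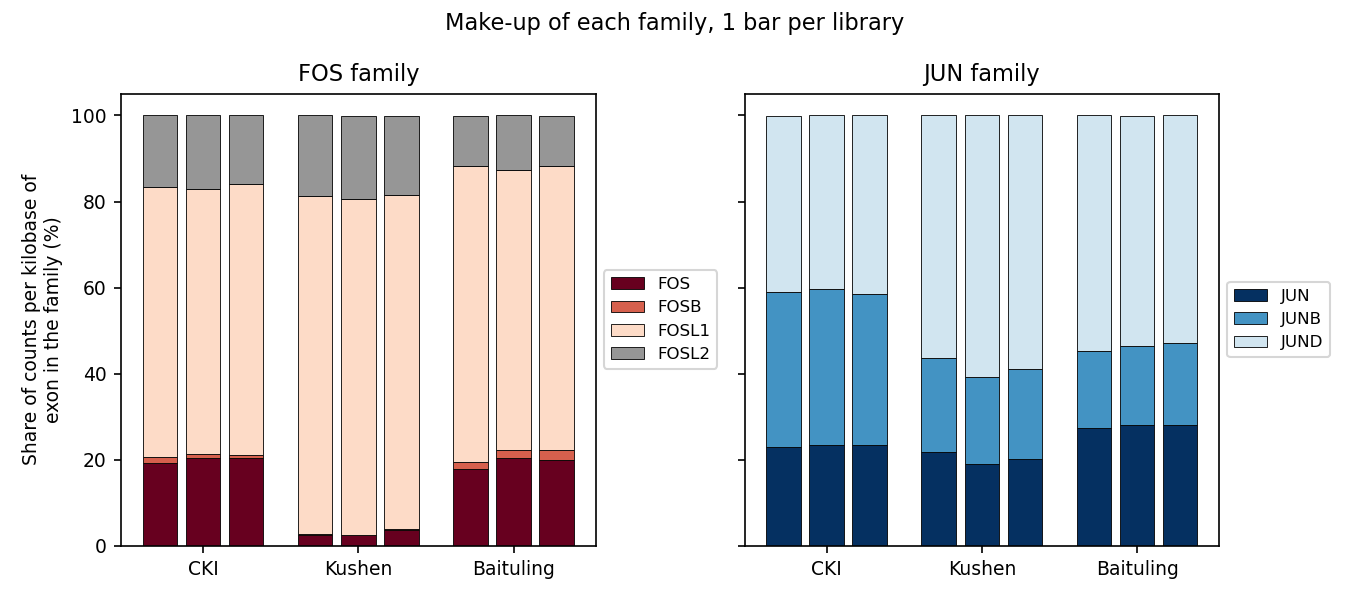
Share (%) of each member in the counts per kilobase of its family, with 1 stacked bar per library. FOS took its smallest share, 2.84% on average, in the Kushen bars of the FOS family, where FOSL1 made up 78.2% on average, and JUNB took its largest share, 35.9%, in CKI.

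Genes with a pattern like that of a member were sought over the 9 libraries for the 4 members whose group means spanned more than 1 on the log2 scale. The measure was the root-mean-square difference of log2 CPM after centring each gene on its own mean, over 12059 candidate genes. By this measure FOS and FOSB were closer to each other (0.436) than to any candidate. The closest candidates to FOS were SNORD3B-2 (0.511), a small nucleolar RNA gene with near-identical copies, CSF2 (0.596), which encodes the growth factor GM-CSF, and SLC14A1 (0.615), a urea transporter. For FOSB they were SNORD3B-2 (0.720), CSF2 (0.743) and SLC6A12 (0.815), a betaine transporter. JUN was followed by DHRS3 (0.0635), a retinal reductase, NR4A2 (0.105), a nuclear receptor and immediate early gene, and TCN1 (0.112), a vitamin B12 carrier. The closest to JUNB were RRAD (0.0904), a small GTPase, NOCT (0.147), the circadian gene for nocturnin, and MRPS24 (0.147), a mitochondrial ribosomal protein. RRAD measured 39.2 ± 2.85 CPM (SD, n = 3) in CKI, 15.3 ± 2.34 CPM in Kushen and 22.6 ± 0.676 CPM in Baituling. The choice of measure mattered: by Pearson correlation none of the 3 closest genes to FOS, FOSB or JUNB was the same, and 1 of the 3 closest to JUN was. FOS and FOSB correlated at 0.98, below FOS with SLC14A1 (0.985) and FOSB with CSF2 (0.986).

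Partner genes were examined next, since Fos and Jun proteins also pair with ATF, JDP, BATF and MAF proteins. Of 14 partners listed, 13 passed the filter on low counts. In CKI against Kushen 7 rose and 1 fell at an adjusted p under 0.05 in edgeR's quasi-likelihood test over all genes, or 53.8% and 7.69% of the list, beside 19.6% and 20.2% of all genes tested. ATF3, a stress-induced partner of JUN, rose by 1.53 ± 0.10 (adjusted p 5.51e-10), from 10.0, 11.1 and 10.1 CPM in Kushen to 30, 30.8 and 29.6 CPM in CKI. MAFF, a small MAF protein, rose by 0.69 ± 0.06, and JDP2, a repressor that pairs with JUN, fell by 0.43 ± 0.11 on the log2 scale. Without CKI replicate 1, 5 partners passed in place of 8.

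In CKI against Baituling 5 partners rose and 2 fell, beside 39.1% and 37.0% of all genes. ATF3 (1.24 ± 0.10) and MAFK (1.09 ± 0.08, adjusted p 9.43e-11 in edgeR) were the largest rises among partners whose average log2 CPM was 1 or more. JDP2 (-1.36 ± 0.10) and BATF3 (-1.34 ± 0.11), a partner of JUN in immune cells, were the falls. ATF3 and JUNB were thus both higher in CKI than in either single injection. In Kushen against Baituling 4 partners rose and 6 fell, beside 35.6% and 36.1% of all genes, with MAFG at 0.87 ± 0.05, MAFK at 0.53 ± 0.08, BATF3 at -1.25 ± 0.11 and JDP2 at -0.93 ± 0.10. The median of the list in CKI against Baituling was 0.01 and changed sign with the scaling, to -0.01 with DESeq2 size factors and 0.30 with library totals.

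The factors and kinases that induce AP-1 genes were all expressed above the filter (24 of 24 listed). In CKI against Kushen 6 rose and 3 fell (25% and 12.5% of the list, beside 19.6% and 20.2% of all genes tested), and none was past the fold threshold. Among them were CREM, a CREB family factor (0.33 ± 0.05), MAP2K1, which activates ERK (0.28 ± 0.04), RPS6KA2, a kinase downstream of ERK (-0.42 ± 0.06, edgeR adjusted p 3.81e-05), and MAPK9, a JNK (-0.15 ± 0.04). SRF, which acts on the FOS promoter, measured 189, 182 and 220 CPM on average in CKI, Kushen and Baituling. Its log2 fold change of 0.05 between CKI and Kushen did not pass (edgeR adjusted p 0.44). SRF was lower than in Baituling both in CKI (-0.22 ± 0.05, edgeR adjusted p 0.00029) and in Kushen (-0.27 ± 0.05, edgeR adjusted p 4.08e-05). Against Baituling, 12 rose and 6 fell in CKI (50% and 25%, beside 39.1% and 37.0% of all genes). In Kushen 11 rose and 7 fell (45.8% and 29.2%, beside 35.6% and 36.1%). The rises in both comparisons included MAPK10, which had only 2, 1 and 3 counts in the Baituling libraries. RPS6KA4, a kinase that phosphorylates histone H3 at immediate early genes, fell by 1.29 ± 0.06 in CKI and by 1.19 ± 0.06 in Kushen on the log2 scale. MAPK3, which encodes ERK1, fell by 0.71 ± 0.06 and 0.58 ± 0.06, while ELK4, a partner of SRF, rose by 0.48 ± 0.05 and 0.60 ± 0.05. RPS6KA2 rose by 0.43 ± 0.06 in Kushen and CREM by 0.41 ± 0.05 in CKI. With library totals 19 rose and 3 fell in CKI against Baituling, 15 rose and 3 fell in Kushen against Baituling, and 9 rose and 1 fell in CKI against Kushen, where the median of the list went from -0.01 to 0.06.

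Proteins that bind AU-rich elements control how long FOS and JUN transcripts last. All 9 listed were tested, and 3 rose and 2 fell in CKI against Kushen (33.3% and 22.2%, beside 19.6% and 20.2% of all genes). ZFP36, which promotes decay of such transcripts and is itself an immediate early gene, rose by 1.31 ± 0.11 (edgeR adjusted p 2.81e-08), from 34.2, 27.4 and 43.1 CPM in Kushen to 87.2, 86.8 and 85.7 CPM in CKI. Its related gene ZFP36L1 rose by 0.33 ± 0.05, HNRNPD fell by 0.32 ± 0.04 and TIA1 by 0.18 ± 0.06 on the log2 scale. In CKI against Baituling 3 rose and 5 fell, beside 39.1% and 37.0% of all genes. ZFP36 again rose by 1.31 ± 0.11 and AUH by 0.56 ± 0.08, whereas HNRNPD fell by 1.32 ± 0.04 and KHSRP by 0.88 ± 0.05. In Kushen against Baituling 1 rose and 7 fell, beside 35.6% and 36.1% of all genes, but with library totals 1 rose and 4 fell. AUH (0.63 ± 0.08) was the rise, and HNRNPD (-1.0 ± 0.04) and KHSRP (-0.83 ± 0.05) were the largest falls. The median of the list in CKI against Kushen was -0.05, and 0.03 with library totals.

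Known AP-1 target genes were then described. Of 32 listed, 27 were tested. In CKI against Kushen 15 rose and 5 fell at an adjusted p under 0.05 (55.6% and 18.5% of the list, beside 19.6% and 20.2% of all genes), and 7 of the rises and none of the falls were past the fold threshold. Those 7 included MMP13 and SPP1, which had few counts in Kushen (22, 11 and 11, and 37, 23 and 15). The median log2 fold change of the list was 0.37. CSF2 rose by 2.09 ± 0.11 (edgeR adjusted p 1.08e-10), from 3.66, 3.45 and 3.33 CPM in Kushen to 12.9, 14.3 and 17.2 CPM in CKI. PTGS2, which encodes cyclooxygenase-2, rose by 1.91 ± 0.13. VIM, which encodes the intermediate filament vimentin, fell by 0.74 ± 0.04 on the log2 scale and PLAU, the urokinase gene, by 0.51 ± 0.04.

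In CKI against Baituling 9 targets rose and 14 fell (33.3% and 51.9%, beside 39.1% and 37.0% of all genes), with a median of -0.52, although 12 rose and 13 fell with library totals. MMP1, an interstitial collagenase with a well-known AP-1 site, rose by 1.33 ± 0.04 (edgeR adjusted p 1.15e-15). It measured 246, 258 and 262 CPM in CKI, 97.8, 104 and 103 CPM in Kushen and 103, 102 and 98.9 CPM in Baituling, and the single injections overlapped. VIM fell by 2.56 ± 0.04 and the cytokine IL6 by 2.17 ± 0.07 on the log2 scale. In Kushen against Baituling 6 rose and 16 fell (22.2% and 59.3%, beside 35.6% and 36.1% of all genes), with a median of -0.41. Some of these genes had few counts in at least 1 of the groups and passed the filter through their level elsewhere. Such rises, in CKI as well as in Kushen against Baituling, were MMP13 (1, 2 and 4 counts in Baituling) and SPP1 (0, 8 and 2). CCL2 was such a fall in both comparisons, with 1, 5 and 3 counts in Kushen and 10, 2 and 11 in CKI. With library totals 9 rose and 14 fell. On the TMM scale HMOX1 (0.49 ± 0.06), an antioxidant enzyme, was among the rises, and CSF2 (-3.07 ± 0.11) and IL6 (-2.72 ± 0.07) were among the falls. Listed targets thus did not share a single order of treatments: CSF2 followed FOS, with Kushen lowest and Baituling highest, and MMP1 was highest in CKI as JUNB was.

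**Figure D4:**
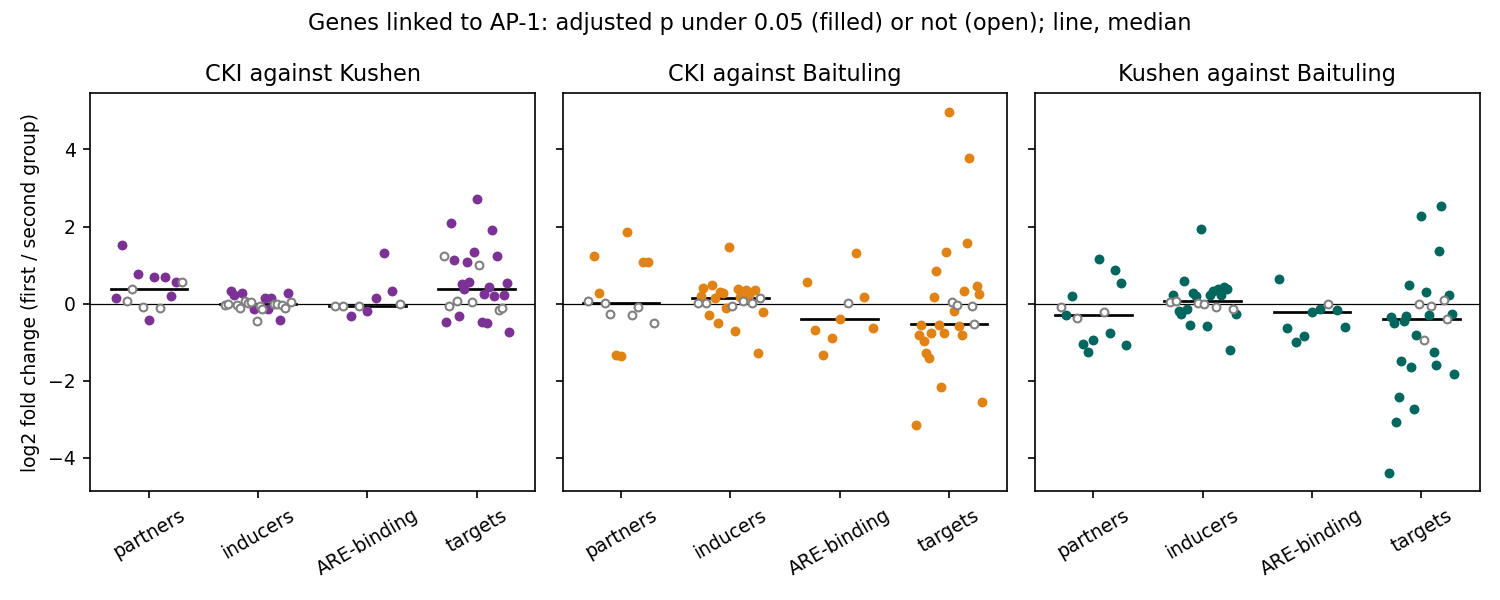
Log2 fold change of tested genes linked to AP-1 in each comparison, grouped as partners, inducers, AU-rich element (ARE) binding proteins and targets. Filled points had an adjusted p under 0.05, open points did not, and lines mark medians, which for the targets were 0.37, -0.52 and -0.41.

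Other immediate early genes were set beside the AP-1 members. Of 22 listed and tested, 18 rose and 2 fell in CKI against Kushen, beside 19.6% and 20.2% of all genes. In Kushen against Baituling 2 rose and 15 fell, beside 35.6% and 36.1%, or 5 and 12 with library totals. In CKI against Baituling 11 rose and 7 fell, beside 39.1% and 37.0%, or 14 and 5 with library totals. Their median there was 0.34, where that of the AP-1 members was -0.43.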

How the data were processed

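Total RNA of 9 MDA-MB-231 libraries was sequenced as unstranded paired-end reads. The authors trimmed reads with Trim Galore 0.3.7, aligned them with STAR 2.5.3a to hg19 and deposited raw whole-number counts per gene. The counting program and annotation are not given in the sources used here, so reads of overlapping genes on opposite strands cannot be told apart. Groups were taken from the labels, and columns were matched to libraries by treatment initial and replicate number. Of 24566 rows, 222 repeated an Ensembl gene with identical counts and were dropped. Symbols, positions and exon lengths came from GENCODE on GRCh37.

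Genes were kept by filterByExpr of edgeR 4.0.16 in R 4.3.3 (minimum count 10, minimum total 15), which left 14195 genes. All 9 libraries entered a single TMM-scaled quasi-likelihood fit across all genes with group as the only term, with two-sided p-values adjusted by Benjamini-Hochberg over all genes tested. The fit was tested on simulated data. Replicates of a group differed by more than sampling noise (chi-square per gene 1.70 to 6.85) and were counted as 3. The design text calls them biological replicates without naming separate cultures, so p-values measure only the spread between these libraries.

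The members and gene lists were chosen with earlier results of these data known, and the lists were written by hand. Named from each list and comparison were up to 2 rises and 2 falls, the largest among genes with an adjusted p under 0.05, no overlap between groups and an average log2 CPM above or equal to 1. Named in addition were all members, their opposite-strand neighbours, the 3 closest genes to each member whose group means spanned more than 1, and SRF, which was chosen after its values were seen. CCL2, MMP13, SPP1 and MAPK10 were named for their few counts in at least 1 group. A gene that the rule also names is not reported here. Motifs were searched in RefSeq promoter windows, and ATTTA in canonical transcripts.

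Alternatives were other scalings, DESeq2 1.42.0, no filter, only the compared groups, a replicate block, the rows as deposited, other gene lengths and leaving out each library.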

Additional observations from a re-analysis of the deposited data

How the results depend on the processing

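The counts of genes past the call rule, and of genes with an adjusted p under 0.05 in the partner, inducer, AU-rich element and target lists over both directions, stayed within 1.5 times their reported values under every alternative tried, apart from 3 counts. With library totals 2 members in place of 1 were past the call rule in CKI against Baituling, and 5 in place of 8 AU-rich element binding genes passed in Kushen against Baituling. With single libraries left out, 5 to 9 partner genes passed in CKI against Kushen, where 8 are reported. Counts by direction moved more with library totals. Falls among inducers went from 3 to 1, 6 to 3 and 7 to 3 in the 3 comparisons and rises from 12 to 19 in CKI against Baituling. Falls among AU-rich element binding genes went from 2 to 1 in CKI against Kushen and 7 to 4 in Kushen against Baituling, and rises among other immediate early genes from 2 to 5 in Kushen against Baituling. The cause was not tested. Shares within a family moved with the length used. Without length scaling FOS made up 20.8% of its family in CKI and 21.7% in Baituling, and JUN made up 36.8%, 32.6% and 42.3% of its family in CKI, Kushen and Baituling. With the canonical transcript length, chosen after seeing the data, the share of FOS was 25.4%, 3.87% and 24.7% and that of JUN 25.2%, 22.1% and 30%. The length used enters each share directly.

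Replicate numbers gave no sign of pairing. Deviations of same-numbered libraries from their group means had correlations of -0.075 to 0.123, beside -0.148 to 0.181 for differently numbered libraries. With so few libraries per group, such correlations cannot exclude a shared culture or day. With the replicate number as a block 269, 2713 and 2158 genes were called in CKI against Kushen, CKI against Baituling and Kushen against Baituling, in place of 270, 2715 and 2162, and 3, 1 and 3 members were past the call rule as without it. Among the members depth limits mainly FOSB, with 30 to 42 counts per Kushen library. Some other genes had fewer, such as CCL2 with 1, 5 and 3 counts in the Kushen libraries. SNORD3B-2, the closest candidate to FOS and FOSB, averaged 0.614 CPM in Kushen.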
